A study of Rattus norvegicus with 12 samples.

Results

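The 9 genes described here encode transcription factors that define the identity of the pancreatic β-cell: Pdx1, Mafa, Neurod1, Nkx6-1, Nkx2-2, Isl1, Pax6, Foxa2 and Rfx6. They were chosen by name as known regulators of β-cell identity, with earlier results of these data known but by no threshold on measured values, and make up 9 of the 28727 genes in the count table. RNA was sequenced from INS-1 832/13 cells, an insulin-secreting line derived from a rat tumour of islet cells, after transduction with an adenovirus expressing either GFP, as the control, or ChREBPβ. ChREBPβ is the short, hyperactive isoform of the carbohydrate response-element binding protein, a glucose-responsive transcription factor encoded by Mlxipl. Cells of each virus were kept in 2 or 11 mM glucose, for 48 h by the series' description although the study's general virus methods give a longer time, which gave 4 groups of 3 libraries, named replicates a, b and c. All 12 libraries came from the same cell line and all had received a virus, so no library shows untransduced cells, and a tumour line stands here for the β-cell. The question was what excess ChREBPβ and high glucose, alone and together, did to the expression of these factors.

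As background, β-cell identity rests on a network of transcription factors that bind one another's genes as well as those for insulin, its processing enzymes and the glucose-sensing machinery. Pdx1, Mafa and Neurod1 bind the insulin promoter directly. Nkx6-1, Nkx2-2, Isl1 and Pax6 are homeodomain proteins that keep the endocrine programme on and other islet fates off, while Foxa2 opens chromatin ahead of other factors and Rfx6 acts in islet development and later in calcium-driven insulin secretion. Loss of these factors from mature β-cells is one of the hallmarks of dedifferentiation, in which cells survive but make and release less insulin.

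Libraries held 25754488 to 60531215 counts. The libraries labelled ChREBPβ were deeper than those labelled GFP, with at least 57088794 counts in 5 of them, except for ChREBPβ 2 mM replicate a with 28595982. The 9 factors had 889 to 16666 counts in every library, and the coefficient of variation of their CPM between replicates was 0.564 to 8.30% with a median of 3.30%. The virus carried a mouse sequence, and whether its reads were counted was not tested. Counts of the rat Mlxipl gene were not higher in the libraries labelled ChREBPβ (log2 fold change −0.33 ± 0.05 (SE) at 2 mM and −0.14 ± 0.05 at 11 mM), whereas a separate entry named ChREBPb was at 0.21 ± 0.06 (edgeR adjusted p = 0.0084, under the 1.2-fold minimum) and 0.37 ± 0.06 (adjusted p = 6.9e-05, called). Pklr, the pyruvate kinase gene that ChREBP activates, was higher in them by 1.69 ± 0.05 and 1.08 ± 0.05 on the log2 scale. Of 8 β-cell markers, Ins1, Ins2, Iapp, Slc2a2, Slc30a8 and Pcsk1 were expressed in every library, whereas the mature markers Ucn3 and G6pc2 were near 0. Markers of other cell types (Sst, Ppy, Krt19, Ptprc, Cd14, Prss1, Cftr and Dcn) were at or near 0. Others were expressed, among them the α-cell hormone gene Gcg, at 1589 to 1719 CPM (counts scaled to library size by TMM) with GFP and 429 to 502 CPM with ChREBPβ while the α-cell markers Irx1, Irx2 and Ttr were near 0, and the duct genes Krt7 and Sox9. The acinar list, apart from Prss1, was also not silent. Its summed level was 42.9 to 56.3 CPM with GFP and 20.2 to 22.6 CPM with ChREBPβ. Near the floor, summed mesenchymal markers were at 0 to 0.117 CPM with GFP and 0.481 to 1.11 CPM with ChREBPβ. Leukocyte markers were at 0.268 to 0.571 and 0.561 to 1.11 CPM. The 1 mesenchymal marker tested was called higher with ChREBPβ at 2 and 11 mM (log2 5.53 and 6.30). The 1 leukocyte marker tested was called higher at 2 mM (1.04), and the 1 endothelial marker lower at both (−0.81 and −0.98). Since these are bulk samples, fewer cells expressing a factor and less of its RNA per cell cannot be told apart.

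ChREBPβ lowered 8 of the 9 factors at 2 mM glucose and raised Foxa2. A gene was called changed where the adjusted p (edgeR quasi-likelihood test, Benjamini-Hochberg over all 14669 genes tested) was under 0.05 and the change at least 1.2-fold. By this rule all 9 factors were called at 2 mM, against a background of 44.1% of all genes tested, with 8 lower (background 23.2%) and 1 higher (background 21.0%). At 11 mM glucose 7 of the 9 were called, all lower, where 33.4% of all genes were called and 19.1% were lower. The median log2 fold change of the 9 was −0.97 at 2 mM and −0.76 at 11 mM, while that of all genes tested was −0.02 in both. The study drew a heat map of differentially expressed β-cell markers from these same libraries, so the direction of these genes is not independent evidence. With scaling by library totals in place of TMM, the share of called genes that were higher fell from 47.5 to 33.2% at 2 mM and from 42.9 to 29.3% at 11 mM.

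**Figure D1:**
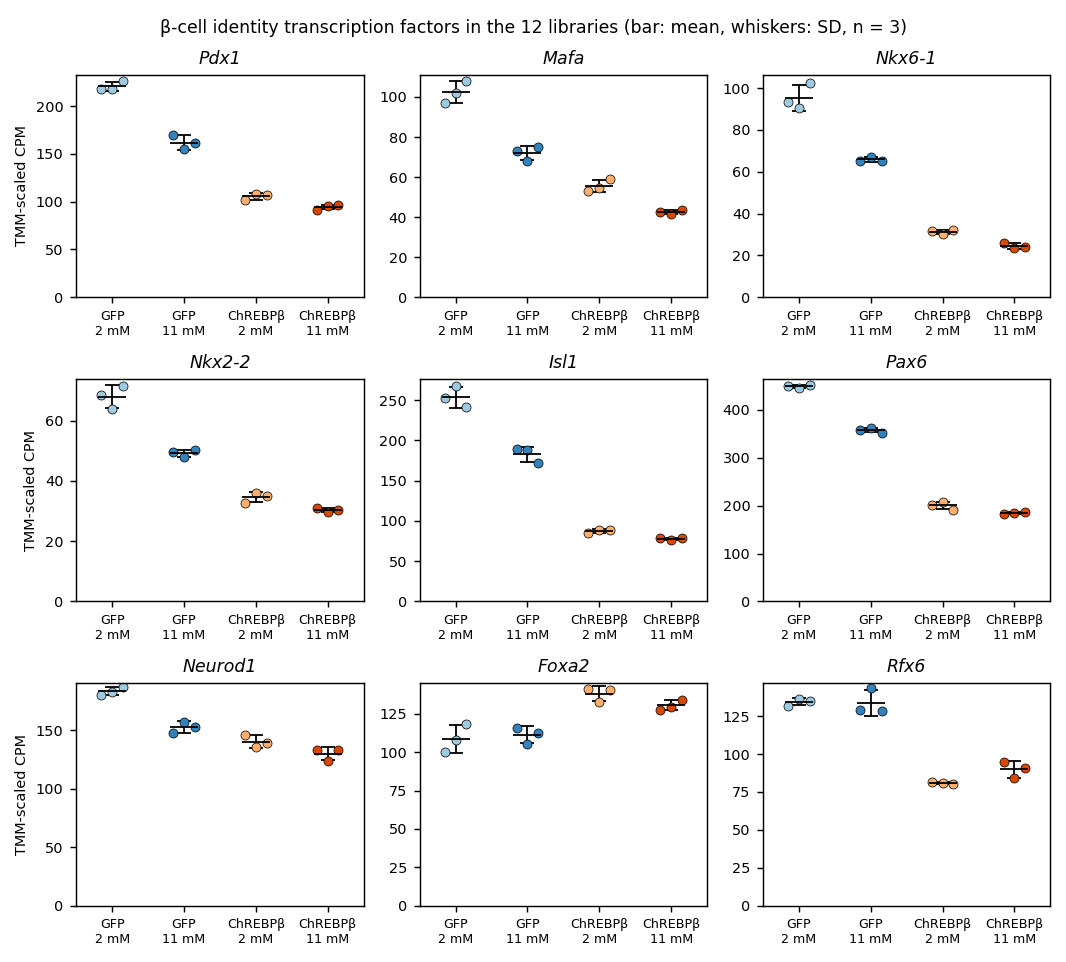
Each panel shows 1 factor, with the TMM-scaled CPM of every library as a point on a linear axis from 0, the group mean as a bar and the SD as whiskers (n = 3). Points of the GFP and ChREBPβ groups at the same glucose do not overlap in any panel, and Foxa2 is the factor whose ChREBPβ points lie above the GFP points.

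Nkx6-1 and Isl1 fell most. Nkx6-1 represses non-β endocrine fates and is needed for glucose-stimulated secretion. It was read at 93.1, 90.6 and 102 CPM in GFP 2 mM replicates a, b and c, and at 65.2, 67.1 and 65.3 CPM in GFP 11 mM. With ChREBPβ it was read at 31.8, 30.3 and 31.96 CPM at 2 mM and at 26.0, 23.4 and 24.1 CPM at 11 mM. No 2 of the 4 groups overlapped, and the order from GFP 2 mM down to ChREBPβ 11 mM held in all libraries. ChREBPβ lowered Nkx6-1 by 3.04-fold at 2 mM (log2 −1.61 ± 0.06, edgeR adjusted p = 3.0e-15) and by 2.68-fold at 11 mM (−1.42 ± 0.05, adjusted p = 3.1e-14). Only 3.74% and 3.44% of all genes tested changed as far or further in either direction in these comparisons.

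Isl1, a LIM-homeodomain protein that binds many islet hormone genes, was read at 252, 267 and 241 CPM in GFP 2 mM and at 189, 188 and 172 CPM in GFP 11 mM. The ChREBPβ libraries held 85.0, 88.4 and 88.8 CPM at 2 mM and 78.6, 76.5 and 78.6 CPM at 11 mM. Every ChREBPβ library lay below every GFP library by a wide gap, and the ChREBPβ groups lay close to each other. The change was 2.90-fold lower at 2 mM (log2 −1.54 ± 0.05, edgeR adjusted p = 5.7e-16) and 2.35-fold lower at 11 mM (−1.23 ± 0.05, adjusted p = 2.8e-14).

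Pax6, Pdx1 and Nkx2-2 came next at 2 mM. Pax6 activates islet hormone genes and represses genes of alternative fates in β-cells. It stood at 449.6, 446 and 451 CPM in GFP 2 mM, 358, 361 and 353 CPM in GFP 11 mM, 201, 208 and 192 CPM in ChREBPβ 2 mM and 182, 184 and 186 CPM in ChREBPβ 11 mM. Its level with ChREBPβ was 2.24-fold lower at 2 mM (log2 −1.16 ± 0.04, edgeR adjusted p = 1.5e-15) and 1.94-fold lower at 11 mM (−0.96 ± 0.04, adjusted p = 4.8e-14).

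Pdx1, the master regulator of pancreas formation and an activator of the insulin gene, was read at 218, 218 and 226 CPM in GFP 2 mM and at 169.9, 155 and 161 CPM in GFP 11 mM. It fell to 102, 108 and 107 CPM with ChREBPβ at 2 mM and to 91.6, 95.03 and 96.3 CPM at 11 mM. The 4 groups did not overlap. ChREBPβ lowered Pdx1 by 2.09-fold at 2 mM (log2 −1.06 ± 0.04, edgeR adjusted p = 4.9e-14) and by 1.72-fold at 11 mM (−0.78 ± 0.04, adjusted p = 9.5e-12).

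Nkx2-2, which recruits repressor complexes to non-β genes, was read at 68.6, 63.9 and 71.4 CPM in GFP 2 mM, 49.5, 47.9 and 50.1 CPM in GFP 11 mM, 32.7, 36.1 and 35.1 CPM in ChREBPβ 2 mM and 31.1, 29.7 and 30.4 CPM in ChREBPβ 11 mM. The 2 GFP groups stood apart from each other, whereas the ChREBPβ groups were separated by a narrow gap. The decrease was 1.96-fold at 2 mM (log2 −0.97 ± 0.05, edgeR adjusted p = 4.7e-12) and 1.62-fold at 11 mM (−0.69 ± 0.05, adjusted p = 1.0e-09).

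Mafa and Rfx6 followed at 2 mM, both falling by less than Nkx2-2 there. Mafa, an insulin gene activator that marks mature β-cells, was read at 96.9, 102 and 108 CPM in GFP 2 mM and at 73.2, 68.2 and 75.05 CPM in GFP 11 mM. With ChREBPβ it stood at 53.2, 54.8 and 59.1 CPM at 2 mM and at 42.6, 41.6 and 43.5 CPM at 11 mM. Its levels stepped down without overlap from GFP 2 mM to ChREBPβ 11 mM. The change was 1.83-fold lower at 2 mM (log2 −0.88 ± 0.05, edgeR adjusted p = 2.8e-11) and 1.69-fold lower at 11 mM (−0.76 ± 0.05, adjusted p = 3.4e-10).

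Rfx6 was read at 132, 136 and 135 CPM in GFP 2 mM and at 129, 144 and 128 CPM in GFP 11 mM, so the GFP groups overlapped. In the ChREBPβ libraries it was at 81.4, 80.9 and 80.0 CPM at 2 mM and at 95.01, 84.0 and 90.7 CPM at 11 mM. It is the factor whose ChREBPβ level was higher at 11 than at 2 mM in every library. ChREBPβ lowered it by 1.66-fold at 2 mM (log2 −0.74 ± 0.05, edgeR adjusted p = 2.2e-10) and by 1.49-fold at 11 mM (−0.57 ± 0.05, adjusted p = 1.1e-08).

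Neurod1 and Foxa2 changed least. Neurod1, a basic helix-loop-helix activator of the insulin gene, was read at 180.5, 183 and 187 CPM in GFP 2 mM, 148, 157 and 153 CPM in GFP 11 mM, 146, 136 and 139 CPM in ChREBPβ 2 mM and 133, 123 and 133 CPM in ChREBPβ 11 mM. At both glucose levels every ChREBPβ library lay below every GFP library. The decrease was 1.31-fold at 2 mM (log2 −0.39 ± 0.04, edgeR adjusted p = 2.6e-07). At 11 mM the difference of −0.23 ± 0.04 (adjusted p = 1.8e-04) was under the 1.2-fold minimum and was not called, but it was called with upper-quartile scaling (−0.27) and with library totals (−0.32).

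Foxa2 was read at 100.1, 108 and 118 CPM in GFP 2 mM and at 116, 106 and 113 CPM in GFP 11 mM. The ChREBPβ libraries held 141, 133 and 141 CPM at 2 mM and 128, 129.7 and 134 CPM at 11 mM. All 6 ChREBPβ libraries lay above all 6 GFP libraries, while the glucose groups overlapped with either virus. Foxa2 rose 1.27-fold with ChREBPβ at 2 mM (log2 0.35 ± 0.05, edgeR adjusted p = 1.6e-05), where 44.3% of all genes tested changed as far or further. At 11 mM its difference of 0.23 ± 0.05 (adjusted p = 0.0014) was under the minimum. With scaling by library totals the value at 2 mM was 0.25 and also under the minimum, and a test against the 1.2-fold minimum gave an adjusted p of 0.065.

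**Figure D2:**
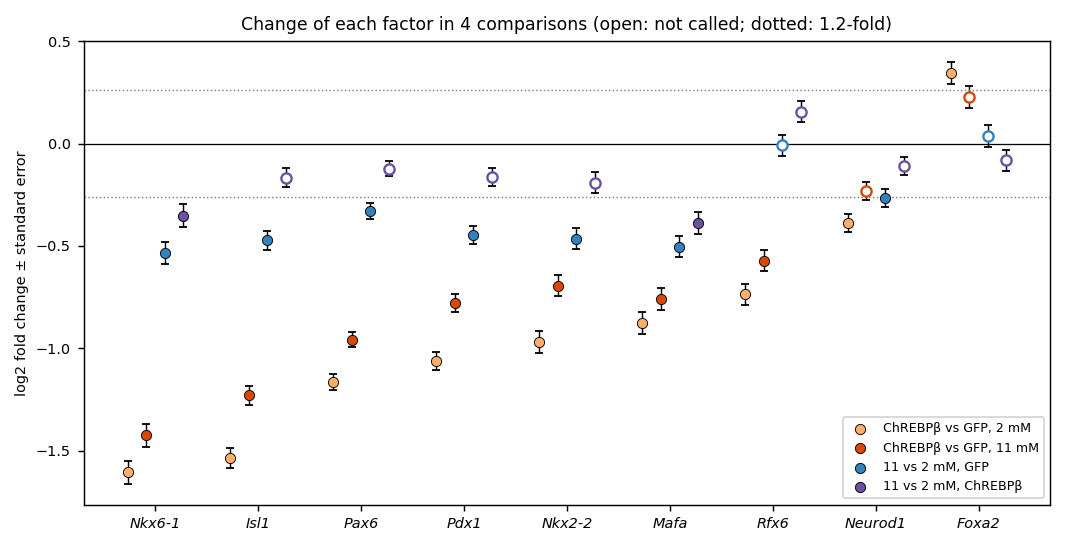
Log2 fold changes (vertical axis) of the 9 factors with their standard errors in 4 comparisons, ordered by the ChREBPβ effect at 2 mM glucose. Filled points were called, open points were not, and dotted lines mark a 1.2-fold change: 8 factors lie below 0 for both ChREBPβ comparisons and Foxa2 lies above.

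Groups of the same glucose did not overlap for any of the 9 factors, at 2 or at 11 mM, where 63.3% and 56.1% of all genes tested had groups that did not overlap. ChREBPβ 2 mM replicate a, the library with less depth than its group, lay within 1.2-fold of replicates b and c for each factor and gave the same order of groups. Leaving out any 1 library kept 9 factors called at 2 mM and 7 at 11 mM.

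The sequence before the transcription start is shown for 4 factors: Nkx6-1 and Isl1, which fell most, Foxa2, which rose at 2 mM, and Pdx1. Pdx1 was picked because its promoter holds a CACGTG box. ChREBP binds, with its partner Mlx, to paired E-boxes of the type CACGTG, and basic helix-loop-helix factors such as Neurod1 bind CANNTG. RefSeq promoters of the GRCr8 rat assembly were used for 7 of the 9 genes. The 4 shown run 5′ to 3′ over the 250 bases before the start on the gene's own strand, with every CANNTG box in capitals.
Pdx1, chr12:12799157-12799406, minus strand: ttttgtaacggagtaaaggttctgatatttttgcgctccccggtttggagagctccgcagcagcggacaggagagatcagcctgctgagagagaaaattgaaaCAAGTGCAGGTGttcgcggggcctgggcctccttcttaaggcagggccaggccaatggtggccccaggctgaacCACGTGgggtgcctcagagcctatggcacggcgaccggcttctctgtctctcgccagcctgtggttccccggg
Nkx6-1, chr14:8273988-8274237, plus strand: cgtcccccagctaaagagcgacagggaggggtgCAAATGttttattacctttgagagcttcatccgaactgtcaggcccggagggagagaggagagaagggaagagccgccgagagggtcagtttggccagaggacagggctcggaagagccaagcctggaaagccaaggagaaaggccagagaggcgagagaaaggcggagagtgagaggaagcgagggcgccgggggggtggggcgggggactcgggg
Isl1, chr2:49823443-49823692, minus strand: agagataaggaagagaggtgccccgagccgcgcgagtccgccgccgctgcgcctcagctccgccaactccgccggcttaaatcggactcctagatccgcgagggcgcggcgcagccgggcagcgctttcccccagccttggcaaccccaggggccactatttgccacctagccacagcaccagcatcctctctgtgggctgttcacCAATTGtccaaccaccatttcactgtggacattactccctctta
Foxa2, chr3:155927509-155927758, minus strand: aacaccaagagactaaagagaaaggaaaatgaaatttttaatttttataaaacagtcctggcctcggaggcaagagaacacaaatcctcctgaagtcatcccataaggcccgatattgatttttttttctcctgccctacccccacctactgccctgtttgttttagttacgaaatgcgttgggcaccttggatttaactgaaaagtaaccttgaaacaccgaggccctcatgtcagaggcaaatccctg

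Pdx1 was the 1 factor of the 7 with a CACGTG box in this window, and its first base lies 73 bases before the start. Shares over all 33469 rat promoters were counted on both strands over a longer window, the 250 bases before and 50 after the start. The counts for the 7 genes are the same over it. The CACGTG box is in 6.42% of all promoters. The Pdx1 window holds a further pair of adjacent CANNTG boxes, Nkx6-1, Isl1 and Neurod1 hold 1 box each, and Foxa2, Nkx2-2 and Pax6 hold none. The 4 of 7 with any CANNTG box compare with 72.1% of all promoters. A paired form of 2 CANNTG boxes 5 bases apart, which is a looser match than the carbohydrate response element itself, was in 0 of the 7 and in 0.777% of all promoters. Among the genes with no box in this window, Foxa2 rose at 2 mM while Nkx2-2 and Pax6 fell. A match is a description of letters only, and binding was not measured in these libraries.

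In the GFP cells, raising glucose from 2 to 11 mM lowered 7 of the 9 factors, against 20.2% of all genes called, 10.0% lower and 10.2% higher. Nkx6-1 fell by 0.53 ± 0.05 on the log2 scale (edgeR adjusted p = 2.2e-07), Mafa by 0.50 ± 0.05, Isl1 by 0.47 ± 0.05, Nkx2-2 by 0.47 ± 0.05 and Pdx1 by 0.45 ± 0.04. Pax6 fell by 0.33 ± 0.04 and Neurod1 by 0.27 ± 0.04, the latter just past the 1.2-fold minimum, which lies at 0.26 on this scale. Groups did not overlap for these 7 factors, where 42.0% of all genes tested had groups that did not overlap. The median over the 9 factors was −0.45 and over all genes −0.00. Foxa2 and Rfx6 were not called and their groups overlapped. Foxa2 differed by 0.04, with a 95% interval from −0.08 to 0.15, and Rfx6 by −0.01, with an interval from −0.11 to 0.10, and both signs turned when single GFP libraries were left out. Neurod1 lost its call without GFP 2 mM replicate c (−0.25) and without GFP 11 mM replicate a (−0.24).

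In the ChREBPβ cells the same rise in glucose gave 2 calls among the 9 factors, both lower, where 3.87% of all genes were called, 2.88% lower and 0.988% higher. Mafa fell by 0.39 ± 0.05 on the log2 scale (edgeR adjusted p = 1.1e-04) and Nkx6-1 by 0.35 ± 0.06 (adjusted p = 5.0e-04). Pdx1, Nkx2-2 and Isl1 had adjusted p-values of 0.026, 0.031 and 0.035, with log2 differences of −0.16, −0.19 and −0.17, which were under the 1.2-fold minimum. Neurod1 (−0.11), Pax6 (−0.12), Foxa2 (−0.08) and Rfx6 (0.16) had adjusted p-values over 0.05. Groups did not overlap for 8 of the 9 factors, Foxa2 being the exception, where 28.9% of all genes tested had groups that did not overlap. The median over the 9 was −0.16 and over all genes 0.00. The ChREBPβ and glucose comparisons share libraries, so their values stand side by side and are not independent of each other.

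The ChREBPβ effect was smaller in size at 11 than at 2 mM for all 9 factors, Foxa2 included, and the interaction term tested this difference directly. It was called for Isl1 (0.31 ± 0.07, edgeR adjusted p = 0.0062), Pdx1 (0.28 ± 0.06, adjusted p = 0.0062) and Nkx2-2 (0.27 ± 0.07, adjusted p = 0.026), with positive values meaning a weaker decrease at 11 mM. That is 3 of 9, where 6.31% of all genes were called, 1.56% in this direction and 4.74% in the other. Pax6 had an interaction of 0.21 ± 0.05 (adjusted p = 0.021), under the 1.2-fold minimum. For Nkx6-1 (0.18), Rfx6 (0.16), Neurod1 (0.16), Mafa (0.11) and Foxa2 (−0.12) the adjusted p was between 0.14 and 0.42. The count rested on single libraries: it fell to 1 without GFP 2 mM replicate c, GFP 11 mM replicate b or ChREBPβ 2 mM replicate a.

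With both changes together, ChREBPβ at 11 mM against GFP at 2 mM glucose, 8 of 9 factors were called, all lower, where 50.5% of all genes were called and 26.8% were lower. Nkx6-1 was 3.89-fold lower (log2 −1.96 ± 0.06, edgeR adjusted p = 1.1e-16) and Isl1 3.26-fold lower (−1.70 ± 0.05, adjusted p = 8.5e-17). Pax6, Mafa, Pdx1 and Nkx2-2 lay between −1.29 and −1.16, and Rfx6 (−0.58 ± 0.05) and Neurod1 (−0.50 ± 0.04) changed less. Groups did not overlap for any of the 9 factors, as for 65.8% of all genes tested. Foxa2 had a log2 fold change of 0.26 ± 0.05 that fell just short of the minimum, and it was called with RLE scaling (0.28), with DESeq2 (0.28) and with the replicate letter as a block (0.26). In the cross comparison of ChREBPβ at 2 mM with GFP at 11 mM glucose, 8 of 9 were called against 27.0% of all genes. There 7 were lower, from −1.07 for Nkx6-1 to −0.37 for Mafa, Foxa2 was higher (0.31 ± 0.05), and Neurod1 (−0.12 ± 0.04) was under the minimum. Here too the groups did not overlap for any of the 9, as for 53.0% of all genes tested. These 7 factors were therefore lower with ChREBPβ at the low glucose level than with GFP at 11 mM.

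The order of the 4 groups was the same for 7 of the 9 factors, with GFP 2 mM highest, then GFP 11 mM, ChREBPβ 2 mM and ChREBPβ 11 mM. Each step in that order was called for Nkx6-1 and Mafa. For Pdx1, Nkx2-2, Isl1 and Pax6 the first 2 steps were called and the last, between the ChREBPβ groups, was not. For Neurod1 only the first step was called. Rfx6 had a single called step, between the GFP and the ChREBPβ groups, and no step between neighbours was called for Foxa2.

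Summed over the 9 factors, expression was 1615 ± 25.0 CPM (SD, n = 3) in GFP 2 mM, 1287 ± 15.1 CPM in GFP 11 mM, 874 ± 0.50 CPM in ChREBPβ 2 mM and 804 ± 14.9 CPM in ChREBPβ 11 mM. The share that each factor took of this sum does not depend on how libraries were scaled. These shares were computed after the other values had been seen. Foxa2 took 6.73% ± 0.45 of the counts of the 9 factors in GFP 2 mM and 15.8% ± 0.55 in ChREBPβ 2 mM, and 8.66% ± 0.43 and 16.2% ± 0.36 at 11 mM. Neurod1 went from 11.4% ± 0.046 to 16.05% ± 0.62 at 2 mM and from 11.9% ± 0.43 to 16.2% ± 0.43 at 11 mM. Both shares were higher in every ChREBPβ library than in every GFP library.

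Isl1 went the other way, from 15.7% ± 0.94 to 10.0% ± 0.24 at 2 mM and from 14.2% ± 0.58 to 9.69% ± 0.051 at 11 mM, as did Nkx6-1, from 5.90% ± 0.32 to 3.59% ± 0.11 and from 5.12% ± 0.082 to 3.05% ± 0.15. The share of Pax6 was 27.8% with GFP and 22.9% with ChREBPβ at both glucose levels. Groups of the same glucose did not overlap in any of these 5 shares, and the exact two-sided permutation test gave p = 0.1 for each, the smallest value that 3 against 3 libraries allow. The shares of Mafa and Nkx2-2 overlapped between the viruses at both glucose levels, and those of Pdx1 (13.7 to 12.1%) and Rfx6 (8.32 to 9.24%) differed without overlap at 2 mM but overlapped at 11 mM. The change of the 9 factors was therefore unequal, whatever the scaling.

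**Figure D3:**
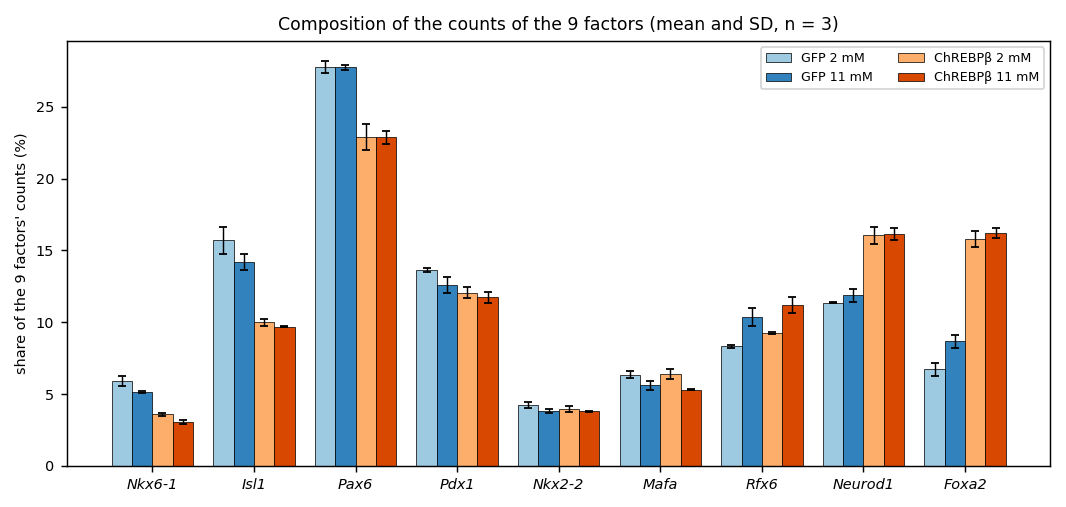
Share of the summed counts of the 9 factors taken by each (percent, bars from 0 with SD, n = 3) in the 4 groups. Foxa2 rises from 6.73% to 15.8% at 2 mM glucose while Isl1 and Nkx6-1 take smaller shares in the ChREBPβ groups; heights of different genes also depend on transcript length.

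Other islet transcription factors also changed in both directions. Of 32 listed, 24 were tested, and ChREBPβ lowered 15 and raised 6 at 2 mM and lowered 11 and raised 7 at 11 mM, and the median log2 fold change was −0.45 and −0.36. Over all genes 23.2% were lower and 21.0% higher at 2 mM, and 19.1% and 14.3% at 11 mM. Glis3 (−1.60 and −1.34 at 2 and 11 mM), an insulin gene activator, and Mnx1 (−1.28 and −1.12), a homeodomain factor that holds the β-cell fate, fell at both glucose levels. Raising glucose lowered 7 and raised 2 of these factors in GFP cells and lowered 3 in ChREBPβ cells, where 10.0% of all genes were lower and 10.2% higher in GFP cells and 2.88% lower in ChREBPβ cells.

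Factors that rose included some known from other cells of the gut and pancreas. Sox9, a duct and progenitor factor and 1 of the 4 duct markers checked, rose by 3.26 and 3.04 but from a mean of 0.838 CPM in GFP 2 mM. Of the other duct markers Krt7 was at 103 to 162 CPM over all libraries and Krt19 and Cftr were at or near 0, and the summed level of the list was 104 to 140 CPM with GFP and 151 to 171 CPM with ChREBPβ. Gata4, a factor of early pancreas and gut, rose by 1.13 and 0.52.

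The close relatives of the 9 factors did not all move with them. These were picked by family after their values had been seen. Neurod2 rose with ChREBPβ by 1.06 at 2 mM and 0.98 at 11 mM, at 50.1 ± 0.64 CPM in GFP 2 mM and 105 ± 7.5 CPM in ChREBPβ 2 mM, whereas Neurod1 fell at 2 mM. Foxa3 rose by 0.83 and 0.72 like Foxa2, while Foxa1 fell (−1.04 and −0.85) at a mean of 3.36 CPM. Rfx3 fell (−0.34 and −0.35), less than Rfx6 did.

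Cofactors and binding partners of the 9 factors showed no common direction. Of 26 listed, 22 were tested, and 5 were higher and 2 lower with ChREBPβ at 2 mM, and 6 higher and 2 lower at 11 mM, with medians of 0.05 and 0.06. The background over all genes was 44.1% called at 2 mM and 33.4% at 11 mM, so the called share of this list was not above it at 2 mM and was near it at 11 mM. With scaling by library totals the counts were 4 higher and 5 lower at 2 mM and 4 higher and 3 lower at 11 mM. Ldb1, the bridging protein through which Isl1 works in β-cells, changed most. It was at 211 ± 6.0 CPM in GFP 2 mM, 245 ± 15 CPM in GFP 11 mM, 479 ± 4.3 CPM in ChREBPβ 2 mM and 499 ± 12 CPM in ChREBPβ 11 mM, a rise of 1.18 ± 0.04 and 1.03 ± 0.04 on the log2 scale, beside the fall of Isl1. Kmt2d, a histone methyltransferase, rose by 0.47 and 0.57 and Pbx2, a homeodomain protein that pairs with other homeodomain factors, by 0.47 and 0.46.

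Among 6 repressors of basic helix-loop-helix activators, which oppose proteins of the Neurod1 type, 3 rose and 2 fell with ChREBPβ at each glucose level. Over all genes 21.0% were higher and 23.2% lower at 2 mM, and 14.3% and 19.1% at 11 mM. Hes1, the Notch target that represses endocrine genes, rose by 2.85 at 2 mM and 2.20 at 11 mM, from 3.66 ± 0.77 CPM in GFP 2 mM to 26.5 ± 0.72 CPM in ChREBPβ 2 mM. Id2 rose by 2.62 and 1.56 and Id1 by 0.82 and 0.74, whereas Id4 fell (−1.36 and −1.29). Hes1 and Id2 also rose with glucose in GFP cells, by 0.77 and 1.09.

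Genes that the 9 factors are known to drive in β-cells mostly fell. Of 30 listed, 27 were tested, and with ChREBPβ 19 were lower and 3 higher at 2 mM and 17 lower and 3 higher at 11 mM, with medians of −0.72 and −0.51, beside the same shares over all genes of 23.2% lower and 21.0% higher at 2 mM and 19.1% and 14.3% at 11 mM. With glucose, 13 were lower and 1 higher in GFP cells and 6 were lower and 0 higher in ChREBPβ cells. Over all genes 10.0% were lower and 10.2% higher with glucose in GFP cells, and 2.88% and 0.988% in ChREBPβ cells. Iapp, which encodes the peptide released with insulin, was lower with ChREBPβ (−1.55 and −1.35). The prohormone convertase genes Pcsk1 (−1.61 and −1.29) and Pcsk2 (−1.34 and −1.21), the granule protein gene Scg2 (−1.35 and −1.18) and the insulin gene Ins1 (−1.44 and −1.29) fell to a like degree. Ins1 and Ins2 are near-identical copies, so how the counting split reads between them is uncertain.

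Not all of these genes fell. Nnat, an imprinted gene that aids insulin processing and is a target of Neurod1, rose by 2.00 and 2.34. The glucose transporter gene Slc2a2, a target of Pdx1 and Foxa2, rose by 0.50 and 0.46, from 438 ± 14 CPM in GFP 2 mM to 618 ± 18 CPM in ChREBPβ 2 mM. Syt4, which tunes the calcium sensitivity of insulin release in mature β-cells, rose by 0.79 and 0.50. The α-cell hormone gene Gcg, which Pax6 and Isl1 activate in α-cells, fell (−1.91 and −1.79). Whether the remaining expression of markers of other cells bears on the 9 factors was not tested.

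**Figure D4:**
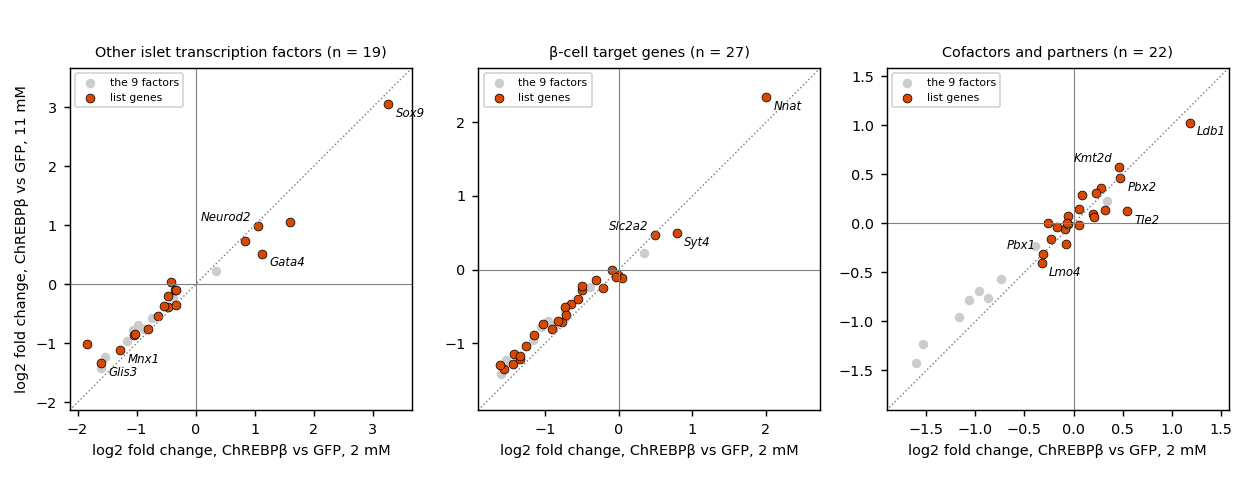
Log2 fold change of ChREBPβ against GFP at 2 mM (horizontal axis) and at 11 mM glucose (vertical axis) for 19 other islet transcription factors, 27 target genes and 22 cofactors with a mean of at least 1 CPM, with the 9 factors in grey and the line of equal change dotted. Most list genes lie near the line, with Sox9, Nnat and Ldb1 highest in their lists.

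The genes whose pattern over the 12 libraries was closest to each factor were sought among the 10467 genes that averaged 5 CPM or more, by the root mean square difference of log2 CPM after each gene was centred on its own mean. Isl1 was closest to Iapp (difference 0.059) and Epas1 (0.094), Pdx1 to Wif1 (0.044) and Dnpep (0.046), and Nkx6-1 to Alpl (0.069) and Gpr119 (0.083). Pax6 was closest to Thy1 and Plxnc1, Nkx2-2 to Parp3 and Wif1, Mafa to Suox and Sh2d3c, Neurod1 to Tspan7, Rfx6 to Cntn1 and Exoc6, and Foxa2 to Prpf19 and Abhd8, all with differences of 0.035 to 0.062. The median difference between a factor and a gene was larger, for example 0.505 for Pdx1. None of the closest genes was itself among the 9 factors.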

How the data were processed

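The deposited table holds whole-number read counts per gene for 12 libraries, made by the authors from paired-end reads of amplified RNA (NuGEN Ovation) against Rnor_6.0 per the labels. The aligner and counter are not given in the sources used here. Since the RNA was amplified and strand is not stated, counts are not independent molecules and overlapping antisense reads cannot be told apart. The authors' group means (4 columns) were not used. A row with no gene name held at most 0.0060% of counts and was left out.

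Counts were scaled by TMM (factors 0.958 to 1.06) and tested in edgeR 4.0.16 (R 4.3.3) with the quasi-likelihood test in 1 fit of all 12 libraries, after edgeR's filter on low counts left 14669 genes. Called means adjusted p under 0.05 and at least 1.2-fold, the minimum in the study's methods. Log2 CPM used a prior count of 2. Named genes are the 9 factors, up to 6 called genes per list and comparison by size of change at a mean of at least 1 CPM, the cell type markers, and the 2 genes closest in pattern to each factor. Genes outside that rule are said to be so, and a few genes that the rule names are not reported here. The members and lists were chosen with earlier results of these data known. Insm1, Sox4, Pax6os1 and Pcx were not analysed here. No transcript lengths were used, so levels of different genes are not compared.

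The labels do not say that replicates were separate cultures, while the study describes its expression values as coming from 3 independent experiments. The p-values measure the spread between these libraries. Replicates of a group differed by more than sampling noise (chi-square per degree of freedom 3.09 to 17.3). Deviations of libraries with the same replicate letter correlated only weakly, which cannot exclude pairing by letter. On simulated counts for ChREBPβ against GFP at 2 mM glucose, 157 of 197 changed genes were recovered, with 12 false calls among 14483 genes. Only 200 genes were changed there, whereas 44.1% of all genes tested were called in the real comparison. These figures therefore do not give the error rate of the real comparison. Alternatives were RLE, upper-quartile and library-total scaling, other filters, DESeq2 1.42.0, other fold minimums, glmTreat, only the groups compared, the replicate block and leaving out each library. Promoters came from RefSeq (GRCr8), and none of its coordinates was set against those of the files.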

Additional observations from a re-analysis of the deposited data

Results flagged for a closer look

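The effect of ChREBPβ differed between the glucose levels for 3 of the 9 factors by the interaction term of the edgeR fit. The difference was 0.31 for Isl1, 0.28 for Pdx1 and 0.27 for Nkx2-2 on the log2 scale, each a weaker decrease at 11 mM. All 3 lost the call when a test against the 1.2-fold minimum was used. With single libraries left out, Nkx2-2 lost it in 5 of 12 fits, Pdx1 in 3 and Isl1 in 1.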

How the results depend on the processing

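Of 1440 values of single factors under the alternatives, 1358 kept their direction and call, 53 lost a call, 25 gained one and 4 turned sign. The 4 were uncalled glucose values in GFP cells: Foxa2 was −0.019 without GFP 2 mM replicate a (range over left-out libraries up to 0.0995), and Rfx6 (lowest −0.061) was 0.0027, 0.017 and 0.022 without GFP 2 mM replicate b, GFP 11 mM replicate a and GFP 11 mM replicate c. With no minimum fold change, 5 factors were called for glucose in ChREBPβ cells, where 1100 of all 14669 genes tested were. With a 2-fold minimum, 4 were called for ChREBPβ at 2 mM, 2 at 11 mM, 2 for ChREBPβ at 2 mM against GFP at 11 mM, and 0 for glucose in GFP cells, glucose in ChREBPβ cells and the interaction. For the last 2, 5 and 4 factors had an adjusted p under 0.05 in edgeR with no minimum. Of all 14669 genes tested, 1184 had one for the interaction. The glmTreat test against 1.2-fold also gave 0 for glucose in ChREBPβ cells and 0 for the interaction. Shares over all genes are not given for the 2-fold minimum or for glmTreat, so those counts have no background beside them. Leaving out 1 library gave 9 to 9 called at 2 mM, 7 to 7 at 11 mM, 6 to 7 for glucose in GFP cells, 2 to 2 in ChREBPβ cells and 1 to 3 for the interaction. Counts of the lists, recomputed under the same alternatives after the data had been seen, stayed within 1.5 times in 580 of 640 cases. Deviations in the 18 pairs of the same replicate letter correlated weakly (r −0.11 to 0.064, median 0.018). The median for different letters was −0.010, and 6 of 12 libraries correlated best with their own letter. The replicate block left 9 factors called at 2 mM and 7 at 11 mM, and among the factors changed 1 call, Foxa2 in ChREBPβ at 11 mM against GFP at 2 mM (0.26).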
